A study of Mus musculus with 20 samples.

Results

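The genes described are 8 mouse genes of mast cell granules, histamine synthesis and the IgE receptor: Hdc, Cpa3, Cma1, Mcpt4, Tpsb2, Tpsab1, Fcer1a and Ms4a2. They were chosen by name, and all 8 were found among the 35579 genes to which the transcripts of the 20 libraries were summed. The libraries were made from total RNA of hindlimb skin and hindlimb muscle of wild-type C57BL/6J mice, 70 days after treatment of the left hindlimb. One group of each tissue was sham treated and received no radiation (sham, 3 libraries), one was exposed to 35 Gy in an electron accelerator run in FLASH mode, which delivers the dose at an ultra-high rate (FLASH, 4 libraries), and one to 35 Gy at the conventional rate (CONV, 3 libraries). All groups shared strain and genotype, and no transgene or drug was named. The age and sex of the animals were not given in the sources used here.

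Mast cells are tissue-resident immune cells that store histamine, heparin and proteases in granules and release them when IgE bound to its surface receptor is cross-linked. Skin of the mouse is rich in the connective tissue type of mast cell, whose granules hold chymases, tryptases and carboxypeptidase A3. Histamine is made from histidine by a single enzyme, histidine decarboxylase, encoded by Hdc. In the mouse that enzyme is also known from basophils and from myeloid cells of the neutrophil line, so the level of Hdc RNA alone does not name the cell. The question put to the data was whether Hdc moved with the mast cell proteases or with genes linked to neutrophils.

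The genes lie on 6 chromosomes of GRCm38, with coordinates from GENCODE M21. Hdc (ENSMUSG00000027360) is on chromosome 2 from 126593667 to 126619299 and Cpa3 (ENSMUSG00000001865), the granule carboxypeptidase, on chromosome 3 from 20215620 to 20242181. The chymase genes Cma1 (ENSMUSG00000022225) and Mcpt4 (ENSMUSG00000061068) are on chromosome 14, from 55941451 to 55944675 and from 56059629 to 56062313. The tryptase genes Tpsb2 (ENSMUSG00000033825) and Tpsab1 (ENSMUSG00000024173) are on chromosome 17, from 25366305 to 25369098 and from 25343245 to 25345562. Fcer1a (ENSMUSG00000005339), which encodes the IgE-binding alpha chain of the receptor, is on chromosome 1 from 173221284 to 173227214. Ms4a2 (ENSMUSG00000024680), which encodes its signal-amplifying beta chain, is on chromosome 19 from 11615523 to 11623719. Tpsb2 is on the plus strand and the other 7 genes are on the minus strand.

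Promoters are shown for Hdc and for 2 protease genes, because the sections that follow set Hdc against the proteases. RefSeq held a promoter for 6 of the 8 genes, each of 300 bases from 250 before to 50 after the start, on GRCm38.p6. Capitals mark a GATA site (AGATAA or TGATAA on either strand, where TTATCT and TTATCA are the reverse complements), the motif bound by the mast cell factor GATA2. Each is printed 5′ to 3′ on the gene's own strand, which is the minus strand. The windows are chr2:126618629-126618928 for Hdc, chr3:20242132-20242431 for Cpa3 and chr14:56062261-56062560 for Mcpt4.
Hdc: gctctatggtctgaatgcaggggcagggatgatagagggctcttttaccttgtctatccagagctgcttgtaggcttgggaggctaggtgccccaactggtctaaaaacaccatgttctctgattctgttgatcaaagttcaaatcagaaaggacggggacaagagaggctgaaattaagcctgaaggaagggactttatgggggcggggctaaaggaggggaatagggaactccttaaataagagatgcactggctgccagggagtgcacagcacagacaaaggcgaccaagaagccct
Cpa3: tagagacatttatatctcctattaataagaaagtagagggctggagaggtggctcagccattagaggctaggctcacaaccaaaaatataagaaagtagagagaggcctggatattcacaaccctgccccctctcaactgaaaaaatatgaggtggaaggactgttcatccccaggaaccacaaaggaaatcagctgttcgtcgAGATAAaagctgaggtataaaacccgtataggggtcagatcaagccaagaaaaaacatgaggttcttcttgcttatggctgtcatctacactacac
Mcpt4: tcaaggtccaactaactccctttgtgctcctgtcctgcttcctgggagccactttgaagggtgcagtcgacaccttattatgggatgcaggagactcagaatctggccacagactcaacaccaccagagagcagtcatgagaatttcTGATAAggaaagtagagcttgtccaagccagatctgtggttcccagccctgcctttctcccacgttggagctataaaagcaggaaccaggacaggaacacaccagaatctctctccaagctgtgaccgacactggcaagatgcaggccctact
The Hdc window held 0 GATA matches, as did that of Cma1, while Cpa3, Mcpt4 and Fcer1a held 1 each and Ms4a2 held 3. Among all 32851 mouse promoters of this length, 18.6% held at least 1 match. The E-box CACATG or CACGTG, of the kind bound by MITF, was found in the Fcer1a window alone among the 6, against 20.4% of all promoters. The C/EBP-type motif TTNCNNAA, searched on both strands, was likewise found in the Fcer1a window alone, against 40.7% of all promoters. A match is a run of letters, not a site shown to be bound, and these data hold no binding measurement.

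In sham skin the mean levels of 4 of the 5 proteases were above that of Hdc. Levels between genes are compared in TPM, a value per transcript length and library depth. In sham skin Mcpt4 had 20.9 ± 8.33 TPM (SD, n = 3), Cpa3 12.5 ± 5.84, Cma1 11.2 ± 3.61 and Tpsb2 5.48 ± 3.18. Hdc followed with 2.98 ± 0.78 TPM and Ms4a2 with 2.64 ± 1.13, then Fcer1a with 0.201 ± 0.101 and Tpsab1 with 0.00715 ± 0.0124. The ranges over sham libraries of neighbours in this order overlapped from Mcpt4 down to Ms4a2, whereas Ms4a2 and Fcer1a, and Fcer1a and Tpsab1, did not overlap. Tpsab1 has a splice-site change in C57BL/6 mice that prevents production of its tryptase, and its estimated count was 0 in 4 of the 10 skin libraries, and in 6 after rounding to whole counts. In FLASH skin the order was nearly the same, with Mcpt4 first at 25.6 ± 18.7 TPM (SD, n = 4) and Hdc at 6.91 ± 7.05. In CONV skin Hdc came first at 106.8 ± 66.0 TPM (SD, n = 3), ahead of Mcpt4 at 39.8 ± 26.5, Cma1 at 29.5 ± 12.2, Cpa3 at 21.8 ± 12.4 and Tpsb2 at 15.9 ± 9.39. The ranges of Hdc (30.7 to 148) and Mcpt4 (21.9 to 70.2) still overlapped in CONV skin, because CONV library 1 had a lower Hdc level than the other CONV libraries.

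A skin library held between 24396463 and 33250762 estimated counts, and a muscle library between 10198699 and 12336479. The labels give batch 1 for all skin and batch 2 for all muscle libraries, so that tissue and batch cannot be told apart. In 7 records, 2 of skin and 5 of muscle, the deposited file bore the library name of another record. None of these was a CONV record, so setting CONV against the other 7 libraries of its tissue gives the same comparison whichever name is followed. That comparison is therefore given first. Skin FLASH library 4 stood above the other FLASH libraries in Hdc, Cpa3, Cma1, Mcpt4 and Tpsb2. Results are given with and without it where it moves them. Because it was singled out on the members themselves, refits without it are no independent support for their changes. Over all genes, its chi-square per degree of freedom was 70.4 with FLASH library 3, the lowest among skin FLASH pairs. With FLASH library 1 it was 165.7, and with FLASH library 2 it was 402.5, the highest. Keratins marked all skin libraries, with Krt5, Krt14 and Krt10 together at 4993 to 33330 CPM, but 3 skeletal muscle genes also ranged from 24.7 to 16250 CPM over the skin libraries.

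Hdc was the member that rose in CONV skin. Its level, in CPM (counts scaled to library size), was 5.11, 4.43 and 3.45 in the sham libraries, 4.39, 4.27, 4.43 and 18.4 in the FLASH libraries, and 35.3, 112 and 149.7 in the CONV libraries. All CONV libraries lay above all others. The mean was 99.05 ± 58.3 CPM in CONV (SD, n = 3) and 6.36 ± 5.35 in the other libraries (SD, n = 7), a ratio of 15.6. The log2 change was 3.96 ± 0.56 (SE), with an adjusted p of 0.0352 by edgeR's quasi-likelihood test over all genes. Hdc was the only call among 7 members tested, where 1.65% of all 20026 genes were called. CONV libraries lay wholly above the others for 3.85% of genes tested in skin. In bulk tissue, more cells of a type and more RNA per cell cannot be told apart. The call was lost when any of sham libraries 1, 2 or 3, FLASH libraries 1, 2 or 3, or CONV library 3 was left out (edgeR adjusted p 0.0748 to 0.162, log2 change 3.50 to 3.91), and without FLASH library 4 the change was 4.51 with an adjusted p of 0.00133. In the refits without a sham library or without FLASH library 1, 2 or 3, edgeR called 0 genes of the whole table.

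The proteases were higher on average in CONV skin, but none passed the test. Cpa3 had 12.7, 7.97 and 4.02 CPM in sham, 7.15, 5.92, 8.13 and 22.0 in FLASH, against 16.3, 7.54 and 23.0 in CONV. The groups overlapped, FLASH library 4 being almost as high as the highest CONV library. Its log2 change in CONV against the other libraries was 0.69 ± 0.49 (edgeR adjusted p = 0.409). Cma1, a chymase with elastase-like activity in rodents, had 7.17, 5.75 and 3.13 CPM in sham, 4.81, 4.05, 5.88 and 18.4 in FLASH, against 11.6, 13.3 and 21.6 in CONV. FLASH library 4 lay inside the CONV range, so the CONV and FLASH libraries overlapped. The log2 change of Cma1 was 1.14 ± 0.48 (adjusted p = 0.187), and 1.60 without FLASH library 4 (adjusted p = 0.0130), a refit that called 7.31% of genes.

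Mcpt4, the chymase of connective tissue mast cells nearest in function to the human enzyme, had 15.2, 10.8 and 5.24 CPM in sham, 8.04, 6.90, 8.60 and 26.2 in FLASH, against 14.0, 14.0 and 35.5 in CONV. The groups overlapped, and the log2 change was 0.87 ± 0.48 (adjusted p = 0.295). Tpsb2, the tryptase that C57BL/6 mast cells make, had 5.44, 2.77 and 1.25 CPM in sham, 2.93, 1.05, 3.26 and 17.0 in FLASH, against 6.91, 6.64 and 15.3 in CONV. Its highest library was FLASH library 4, and its log2 change was 1.00 ± 0.75 (adjusted p = 0.435). Tpsab1 did not pass the filter on low counts and was not tested in skin. Its rounded estimated counts were 6, 0 and 19 in CONV and at 0 to 5 in the other libraries, with 5 in FLASH library 4. Of 1617 stretches of 31 bases in the transcripts of Tpsb2, 9 also occurred in Tpsab1, or 0.557%. For Mcpt4, 10.2% of 1078 such stretches also occurred in Cma2, a chymase gene listed at 1 to 46 counts in skin.

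The chains of the IgE receptor gave changes of opposite sign, and neither passed the test. Fcer1a had 0.0376, 0.083 and 0.0958 CPM in sham, 0.0989, 0.0375, 0.475 and 1.82 in FLASH, against 1.03, 0.379 and 1.99 in CONV, which is 1 to 62 estimated counts per library. The ranges of Fcer1a in FLASH and CONV libraries overlapped. Its log2 change in CONV against the other libraries was 1.57 ± 1.04 (adjusted p = 0.378), and 2.99 in the refit without FLASH library 4 (adjusted p = 0.0413). Ms4a2 had 3.79, 2.21 and 1.40 CPM in sham, 2.41, 2.25, 2.15 and 3.52 in FLASH, against 1.91, 1.52 and 2.70 in CONV. The CONV libraries lay inside the range of the others, with a log2 change of -0.31 ± 0.32 (adjusted p = 0.575). Among the 7 members that passed the filter, 6 had a positive change and the median log2 change was 1.00, against 0.0047 over all genes tested.

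**Figure D1:**
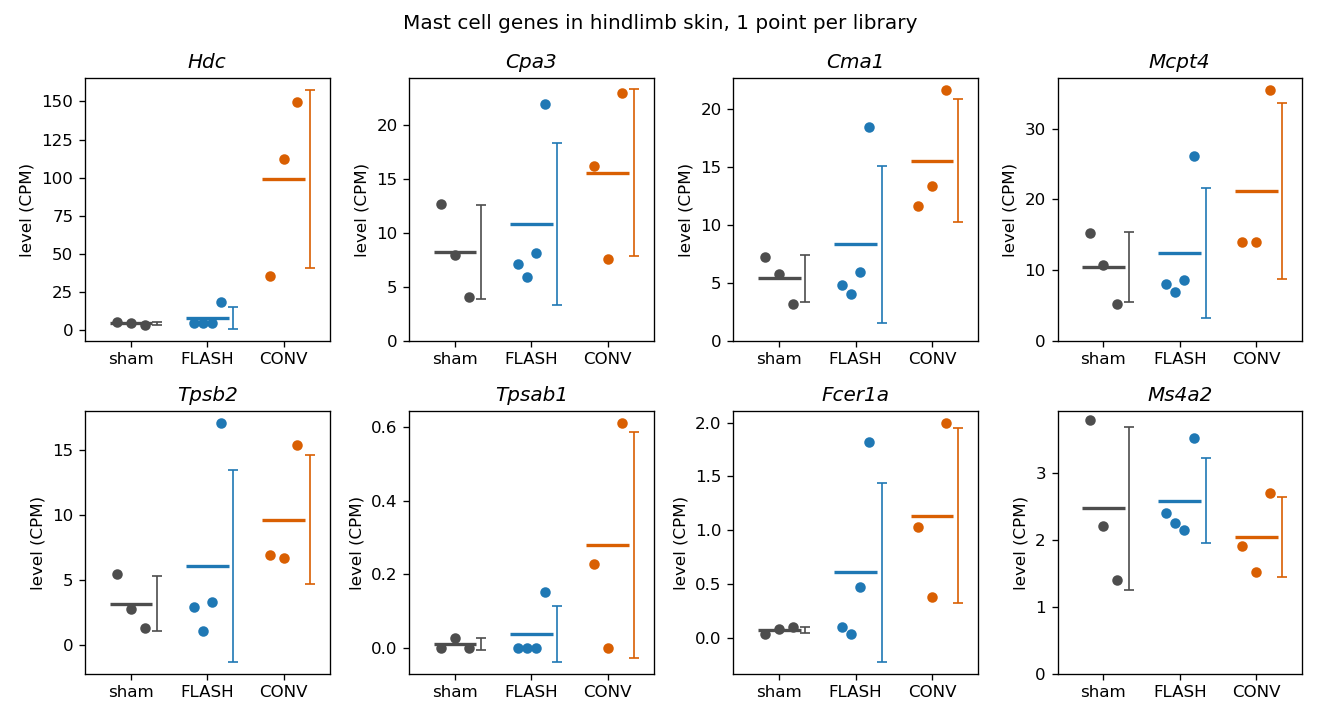
Level of each of the 8 genes in hindlimb skin in CPM (vertical axis, a separate linear scale for each gene) by group, 1 point per library, with the group mean as a line and the SD as the bar beside it. Hdc in the 3 CONV libraries (35.3 to 149.7 CPM) is above all other libraries, whereas for the other genes FLASH library 4 reaches into or above the CONV range.

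In the comparisons of single groups, 0 members passed edgeR's test, as did 0% of the 20026 genes tested in CONV versus sham, 0% in FLASH versus sham and 0% in FLASH versus CONV. At an unadjusted p under 0.05, 4035, 132 and 2540 genes were counted in these comparisons, 3, 1 and 1 of them members. For FLASH versus sham that number was 1354 with files taken by library name, 392 without the libraries of disagreeing name and 64 without FLASH library 4. DESeq2 called 1174 higher and 401 lower genes in CONV versus sham (7.18%), 4 and 1 in FLASH versus sham (0.0179%), and 56 and 403 in FLASH versus CONV (2.2%). Hdc differed by 4.52 ± 0.77 on the log2 scale between CONV and sham (edgeR adjusted p = 0.127; DESeq2 1.02e-08). Without FLASH library 4 this Hdc value was 4.52 (edgeR adjusted p = 0.0428, in a refit that called 0.447% of genes), and without CONV library 1 it was 4.92 (0.0301, with 1.99% of genes called). DESeq2 and these refits were the only ones of 16 alternatives in which Hdc passed. Its edgeR adjusted p reached 0.323 in the others. Fcer1a differed between CONV and sham by 3.89 ± 1.30 (edgeR 0.169; DESeq2 0.0270). From CONV to FLASH the Hdc difference was -3.65 ± 0.66 (edgeR adjusted p = 0.249; DESeq2 6.09e-06), and -4.05 without CONV library 1 (edgeR adjusted p = 0.0404, with 0.574% of genes called). Without FLASH library 4 it was -4.50 and did not pass (edgeR adjusted p = 0.0545). Hdc passed in no other of 16 alternatives, with an edgeR adjusted p of up to 0.764. Between FLASH and sham the Hdc difference was 0.87 ± 0.64 (edgeR adjusted p = 1.00), and 0.01 without FLASH library 4. The proteases Cpa3, Cma1, Mcpt4 and Tpsb2 differed between FLASH and sham by 0.39, 0.63, 0.26 and 0.95, and without FLASH library 4 by -0.22, -0.12, -0.40 and -0.38. The comparisons share libraries, so their values are not independent of each other.

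Whether Hdc moved with the proteases was tested on the ratio itself. The CPM ratio of Hdc to Cpa3 was 0.401 to 0.857 in the 7 sham and FLASH libraries, FLASH library 4 included at 0.837, and 2.17, 14.9 and 6.50 in the CONV libraries. The ranges did not overlap. The ratio of Hdc to Cma1 was 0.712 to 1.10 in the 7 libraries and 3.04, 8.42 and 6.93 in CONV. On the log2 scale with a prior count of 2, the change of Hdc exceeded that of Cpa3 by 3.23, that of Cma1 by 2.65, that of Mcpt4 by 3.05, that of Tpsb2 by 2.51, that of Tpsab1 by 2.46 and that of Ms4a2 by 4.24. Each had p = 0.0167 by a two-sided exact permutation test, the smallest that 3 against 7 libraries can give, and 0.0194 adjusted over 7 pairs. The excess over Fcer1a was 1.91, with an adjusted p of 0.05 by the same exact test, which did not pass. So 6 of 7 pairs passed. The same exact test of Hdc against each of 20025 other genes tested in skin reached its smallest p for 93.6% of them, in 18726 of 18736 cases with the larger change in Hdc, so the count is near the background and shows nothing particular to mast cell genes. With a prior count of 0.5 the excess over Tpsab1 was 1.63 with an adjusted p of 0.333 by the exact test, which did not pass. Without any 1 CONV library the smallest p that the exact test can give is 0.0556, so 0 pairs could pass, and the excesses over Cpa3 were then 2.57 to 3.95.

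The same test against neutrophil-linked genes gave differences in both directions. Of 14 such genes, 13 passed the filter on low counts, and the change of Hdc differed from that of 6 (exact permutation test, adjusted p = 0.0361 over 13 pairs). These 6 pairs were at the smallest p, which 93.6% of all genes reached against Hdc, so the count is below the background. Given as the log2 change of Hdc minus that of the gene, the difference was -3.68 for S100a9, a calcium-binding protein abundant in neutrophils, -2.86 for Retnlg, a resistin-like protein of neutrophils, -1.30 for the activating receptor Trem1 and -1.11 for the formyl peptide receptor Fpr1. These genes changed more than Hdc, which over all genes held at the smallest p for 10 of 20025, or 0.0499%. The difference was 2.75 for the chemokine receptor Cxcr2 and 3.88 for the interleukin-1 decoy receptor Il1r2, which changed less than Hdc. At the smallest p, 93.5% of all genes likewise changed less than Hdc, so this is nothing particular to Cxcr2 and Il1r2. The prior count understates changes of genes near 0 counts, such as Retnlg. For the other 7 genes the test did not pass. Their differences (Hdc minus gene) were 0.07 for Cd177, 0.15 for Clec4e, -0.62 for Csf3r, -0.68 for Fpr2, 1.14 for Mmp9, -2.08 for Clec4d and -3.56 for S100a8, with adjusted p from 0.0813 to 0.817 by the exact test. A p above the threshold does not show equal change. The CPM ratio of Hdc to the lectin receptor Clec4e was 1.81 to 3.68 in the sham and FLASH libraries and 2.65, 3.39 and 2.30 in CONV, so these ranges overlapped. All 6 calls were lost when any sham library, any of FLASH libraries 1 to 3 (smallest adjusted p 0.0516 by the exact test) or any CONV library (0.103 to 0.120) was left out. With fewer libraries the smallest p of the exact test is larger, and without a CONV library no pair can pass. Over all refits with 1 library left out the difference was -3.14 to -2.53 for Retnlg and -1.42 to -1.15 for Trem1. In contrast, 8 pairs passed without FLASH library 4. With TPM in place of CPM 0 of 13 neutrophil pairs passed (smallest adjusted p 0.0542 by the exact test) and 6 of 7 mast cell pairs did.

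**Figure D2:**
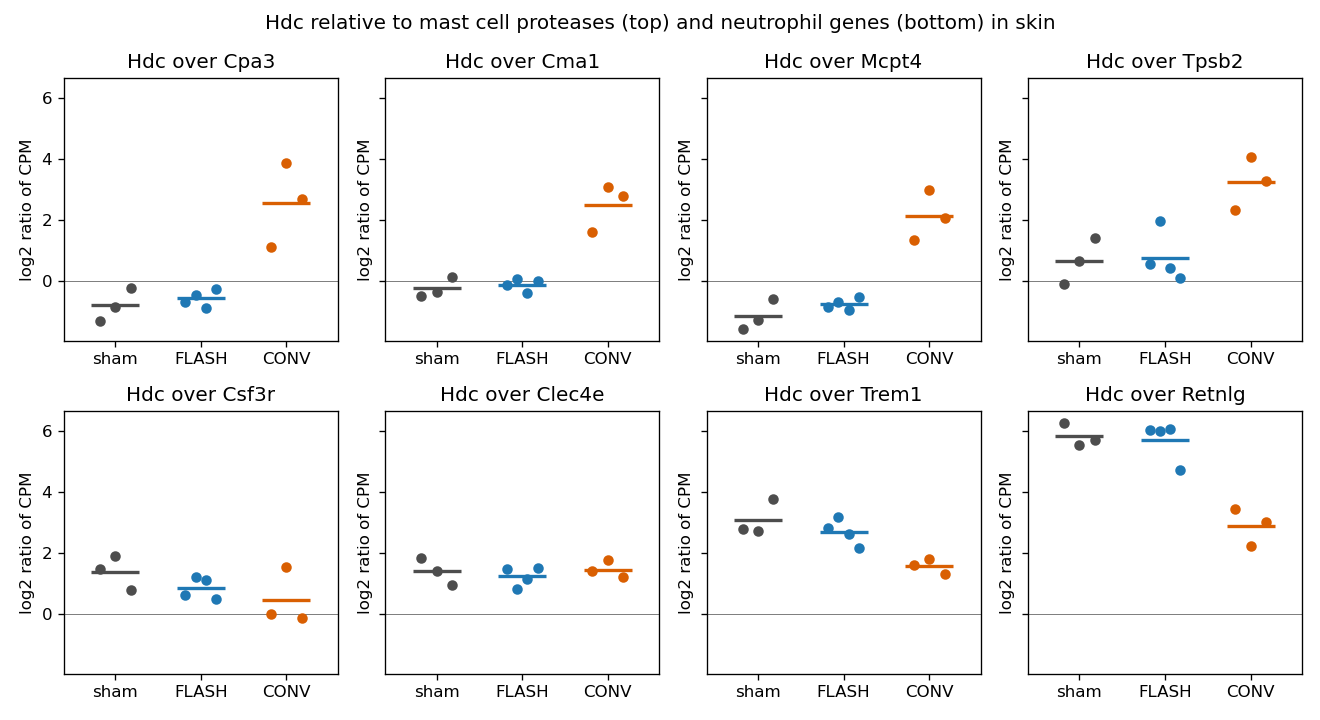
Log2 ratio of Hdc to another gene in CPM with a prior count of 2 (vertical axis) by group in skin, 1 point per library and the group mean as a line, for 4 proteases (top) and 4 neutrophil-linked genes (bottom). The ratios to Cpa3, Cma1, Mcpt4 and Tpsb2 are above the other libraries in all 3 CONV libraries, the ratios to Csf3r and Clec4e overlap, and the ratios to Trem1 and Retnlg are lower in CONV.

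Of the 13 neutrophil-linked genes tested, 8 rose in CONV skin by edgeR's test, where 1.65% of all 20026 genes were called. The list was chosen with earlier results of these data known, so its 8 calls against that share are no independent test. All 13 had a positive log2 change, with a median of 5.02. The largest calls were Retnlg at 7.20 ± 1.17, Fpr1 at 5.70 ± 0.98, Fpr2 at 5.27 ± 0.99 and Trem1 at 5.07 ± 0.81, with adjusted p from 0.0352 to 0.0388. Retnlg was listed at 84, 507 and 574 estimated counts in CONV, 21 in FLASH library 4 and at most 1 in the other 6 libraries. Some of the 13 genes, Retnlg, Fpr1 and Fpr2 among them, passed the filter on low counts only through the CONV libraries. Their calls, and the count and median that include them, are therefore no independent support. Csf3r, the receptor for the neutrophil growth factor G-CSF, changed by 4.50 ± 0.78 (adjusted p = 0.0366) with 35.2, 38.7 and 165 CPM in CONV and 1.13 to 13.1 in the others. S100a8, the partner of S100a9, had 54.6, 360.0 and 197.7 CPM in CONV and 0.15 to 32.3 in the others, but its change of 5.30 ± 1.58 did not pass (adjusted p = 0.103). Cxcr2, which keratinocytes also make, was at 1.27 ± 0.31 (adjusted p = 0.0637). The 14 neutrophil-linked genes summed to 280.8, 798 and 974 CPM in CONV, 150.8 in FLASH library 4 and 48.3 to 107 in the other 6 libraries. Of 4 neutrophil precursor genes tested, 0 passed edgeR's test and 1 had an unadjusted p under 0.05. The part of neutrophil RNA in the Hdc level was not tested.

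Of 22 further mast cell genes, 16 were tested and 1 rose in CONV skin by edgeR's test. Of the 16, 12 had a positive change, and the median log2 change was 0.24. The gene called was Srgn, the core protein of granule proteoglycan, which many blood cells also make, with a change of 2.85 ± 0.42 (adjusted p = 0.0352). Kit, the stem cell factor receptor of mast cells and of melanocytes, had 10.6, 39.8 and 22.6 CPM in sham, 8.70, 9.45, 54.9 and 35.5 in FLASH, against 40.2, 14.2 and 58.1 in CONV. It overlapped between all groups, with a log2 change of 0.53 ± 0.63 (adjusted p = 0.626). Il1rl1, the receptor for interleukin-33, had 205, 34.4 and 282 CPM in CONV against 9.74 to 66.8 in the others, a change of 3.08 ± 0.69 (adjusted p = 0.0535). Mrgprb2, the receptor through which basic compounds activate mouse mast cells, was picked after its values were seen because it was lowest of the list: 4.27, 3.46 and 1.00 CPM in CONV and 2.00 to 14.9 in the others, a change of -1.58 ± 0.61 (adjusted p = 0.164). Its low library outside CONV was FLASH library 4.

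**Figure D3:**
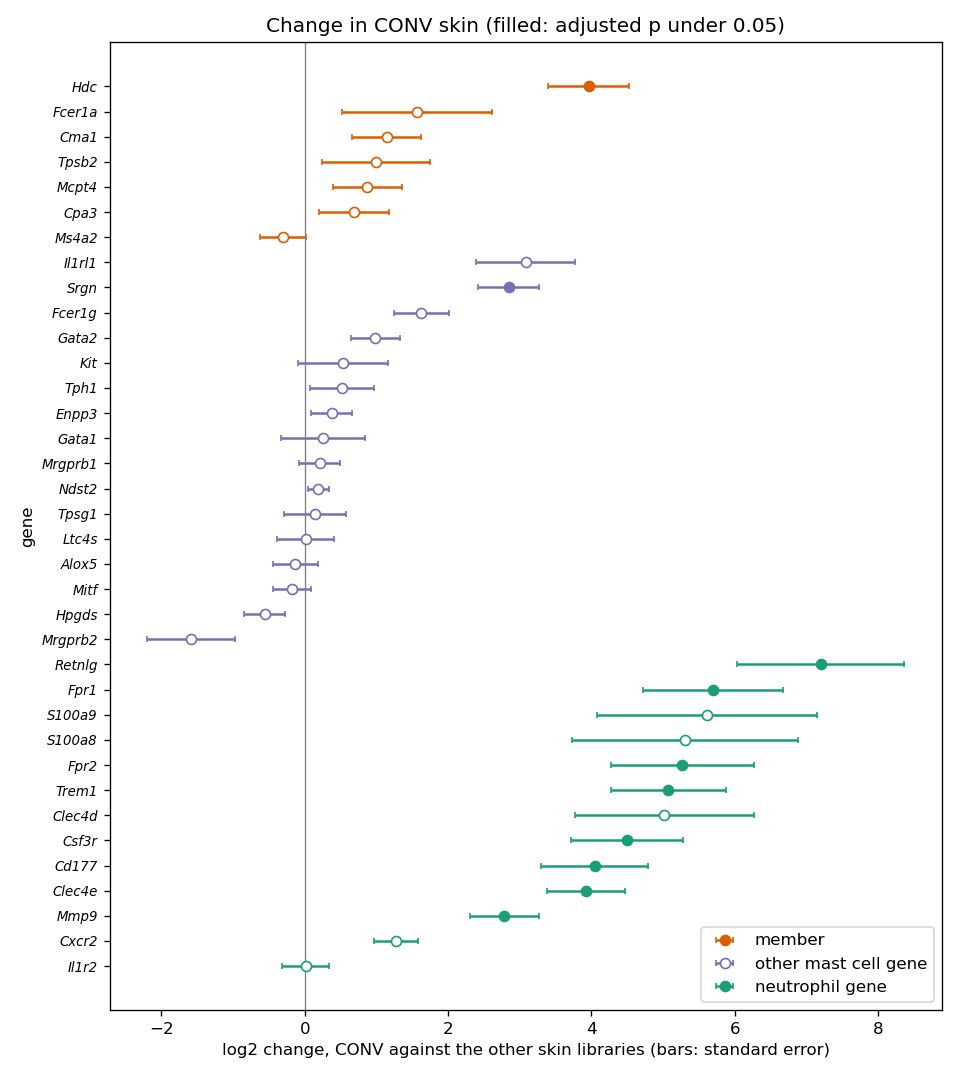
Log2 change in CONV against the other skin libraries with its standard error (horizontal axis) for the members, the other mast cell genes and the neutrophil-linked genes tested, filled where the adjusted p is under 0.05. Hdc at 3.96 lies among the neutrophil-linked genes, whose median is 5.02, and above the other members, which run from -0.31 to 1.57. Cxcr2 and Il1r2 of the neutrophil-linked genes lie within that range of the members. Il1rl1, at 3.08, and Srgn of the other mast cell genes lie between Hdc and the other members.

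Basophils are blood cells related to mast cells that also carry histamine, and their marker protease Mcpt8 left few counts. It was listed at 0 counts in all sham libraries and in FLASH libraries 1 and 2, at 1 and 3 in FLASH libraries 3 and 4, and at 1, 8 and 9 in CONV. The sum of 4 basophil genes was 9.80 to 21.4 CPM in the sham and FLASH libraries and 8.67 to 16.4 in CONV. Most of it was Cd200r3, with a mean of 14.7 CPM in the sham and FLASH libraries and 11.7 in CONV. Of the 2 tested, 0 passed edgeR's test and 0 had an unadjusted p under 0.05. The genes that act on histamine after its synthesis, its vesicle transporter, transporters, degrading enzymes and receptors, gave 0 calls of 6 tested from a list of 9, and 0 with an unadjusted p under 0.05. Their sum was 17.2 to 38.7 CPM in CONV and 22.5 to 41.3 in the other skin libraries. Markers of other cell types moved in the same comparison. Both fibroblast genes rose, the collagen gene Col1a1 by 1.58 ± 0.29 (edgeR adjusted p = 0.0387) and the growth factor receptor Pdgfra by 2.11 ± 0.41 (adjusted p = 0.0410), and their sum was 5567 to 17650 CPM in CONV and 3138 to 4928 in the others. The endothelial gene Pecam1 was at 1.19 ± 0.39 (adjusted p = 0.120), and the fat cell gene Adipoq at -1.62 ± 0.96 (adjusted p = 0.328). The eosinophil list gave 0 calls of 2 tested by edgeR, 1 with an unadjusted p under 0.05, and its sum was 2.67 to 5.42 CPM in CONV and 4.21 to 10.6 in the others. The macrophage list gave 1 call of 5, C1qa at 1.91 ± 0.34 (adjusted p = 0.0366), and its sum was 238 to 604.8 CPM in CONV and 109 to 317 in the others.

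Within the 7 sham and FLASH libraries, Hdc was correlated with the proteases. Pearson's r of log2 CPM was 0.88 for Cpa3, 0.95 for Cma1, 0.88 for Mcpt4 and 0.88 for Tpsb2, with permutation p adjusted over 20 relations of 0.00265, 0.00265, 0.00397 and 0.0429. Spearman's rho was 1 for Cpa3 and Cma1, 0.96 for Mcpt4 and 0.93 for Tpsb2 (adjusted permutation p 0.00265 to 0.0270). The 7 members had a median r of 0.88 (0.66 to 0.95) and the 13 neutrophil-linked genes one of 0.90 (-0.50 to 0.97), with Retnlg at 0.97 and rho = 0.43. Trem1 was the only neutrophil-linked gene of 13 that passed, with r = 0.96 and rho = 1 (adjusted permutation p = 0.00265 for both). By r over these 7 libraries, among 17683 protein-coding genes, Trem1 ranked 42, Cma1 61, Mcpt4 301, Cpa3 310 and Tpsb2 327. Many other genes were thus as closely correlated with Hdc as the proteases. With TPM in place of CPM 0 of 20 relations passed. Without the 2 libraries farthest from the median of Hdc, sham library 3 and FLASH library 4, r was 0.97 for Cpa3, 0.84 for Cma1, 0.92 for Mcpt4 and 0.79 for Tpsb2 over 5 libraries, and 0 of 20 relations passed. Over those 5 libraries the 7 members ran from -0.27 for Fcer1a to 0.97, with Tpsab1 at -0.16. The 13 neutrophil-linked genes ran from -0.70 to 0.72, with Trem1 at 0.62 and S100a8 at 0.05. No correlation over all 10 skin libraries is tested, because Hdc in CONV did not overlap the others.

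As a description with no test, 17683 protein-coding genes were ranked by their Pearson r with Hdc in log2 CPM over the 10 skin libraries, points that share the CONV and non-CONV division. The 5 most like Hdc were Retnlg (r = 0.994), Plaur, the urokinase receptor (0.993), Nlrp3, an inflammasome sensor (0.993), Trem1 (0.993) and Trem3 (0.992). The 13 neutrophil-linked genes had a median rank of 48, from 1 to 9487. The 6 other members that could be ranked had ranks from 740 for Cma1 to 9734 for Ms4a2, and Cpa3 was at 3405. Among further mast cell genes, Srgn was at rank 9, Il1rl1 at 1025, Kit at 6278 and Mrgprb2 at 17090. Over the 7 libraries that were not CONV, the members had a median rank of 318.5 (61 to 1615) and the neutrophil-linked genes one of 224 (24 to 14767), so the lists lay close together there. With the mean of CONV and the mean of the other libraries removed, all 10 libraries were ranked again. The members then had a median rank of 912.5 (157 to 1885) and the neutrophil-linked genes one of 181 (4 to 13457). The genes most like Cpa3 over 10 skin libraries were Osbpl8 (0.971), Ppbp (0.962), Dgat2l6 (0.953), Tph1, the serotonin-synthesis enzyme that mast cells also make (0.950), and Gm13124 (0.950). Mcpt4 was at rank 9 for Cpa3, Tpsb2 at 18 and Cma1 at 52, while the neutrophil-linked genes had a median rank of 1752.

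**Figure D4:**
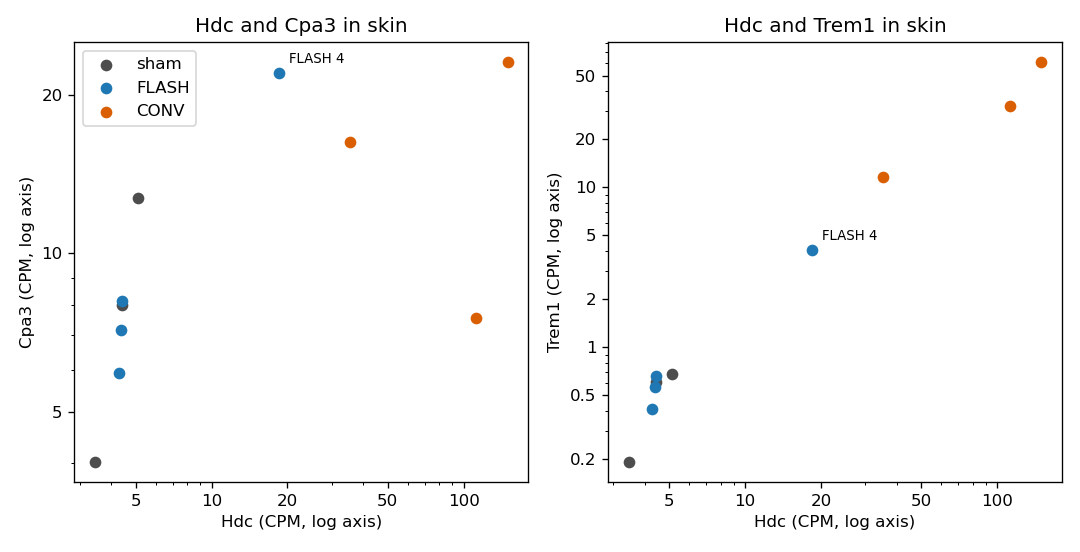
Hdc (horizontal, CPM, log axis) against Cpa3 and against Trem1 (vertical, CPM, log axis) in the 10 skin libraries, coloured by group, with FLASH library 4 named. Cpa3 in CONV (7.54 to 23.0 CPM) overlaps the other libraries while Hdc does not, and Trem1 in CONV (11.7 to 60.4 CPM) lies above the other libraries together with Hdc.

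The transcripts behind the Hdc count differed between libraries, which was noticed after seeing the values and is given with no test. The protein-coding transcript Hdc-201 (2392 bases) took 53.7%, 72.1% and 65.3% of the Hdc counts in the CONV libraries, 64.7% in FLASH library 4 and 14.7% to 43.6% in the other 6. The retained-intron transcript Hdc-204 (4518 bases) took 42.6%, 17.0% and 29.5% in CONV, 31.7% in FLASH library 4 and 53.7% to 80.6% in the others. In estimated counts, Hdc-201 was listed at 497, 1706 and 3041 in CONV, 393 in FLASH library 4 and 19.5 to 61.2 in the others. In CONV library 2 the transcript Hdc-205 of 354 bases took 9.21% of the Hdc counts but 52.1% of the Hdc TPM, so the TPM of Hdc in that library rests in good part on a short transcript.

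In muscle the genes were near the limit of detection. Hdc was listed at 3, 6 and 2 estimated counts in sham, 15, 4, 1 and 3 in FLASH, against 7, 3 and 7 in CONV, and the groups overlapped. Cpa3 ranged from 1 to 11 counts over the 10 libraries, Cma1 from 2 to 11, Mcpt4 from 2 to 15 and Tpsb2 from 0 to 12, with Tpsb2 at 0 in 7 of the 10 libraries. Fcer1a ranged from 0 to 2 counts and Ms4a2 from 0 to 5. Tpsab1 was at 0 in all 10 libraries after rounding, and in 8 before it, which allows up to 3 counts, or 0.247 to 0.299 CPM, in a library. Such limits cover counting error only. Mcpt4 alone passed the filter on low counts. It had 11, 12 and 15 counts in sham, 5, 15, 4 and 2 in FLASH, against 8, 2 and 4 in CONV, and sham and CONV did not overlap. CONV lay wholly below sham for 7.76% of 13080 genes, and with files taken by library name sham had 11, 15 and 4 counts and overlapped CONV. Its log2 change was -1.03 ± 0.61 in CONV against the other libraries (edgeR adjusted p = 0.519), -1.50 ± 0.63 against sham (0.451), -0.97 ± 0.55 in FLASH versus sham (0.999) and 0.53 ± 0.65 in FLASH versus CONV (0.862). So 0 members were called in muscle, where 0.0612% of 13080 genes were called in CONV against the other libraries, 0.00765% in CONV versus sham, 0% in FLASH versus sham and 0.00765% in FLASH versus CONV. Mcpt4 had an unadjusted p under 0.05 in CONV versus sham only. DESeq2 also called 0 members in muscle, but it gave Mcpt4 an adjusted p in FLASH versus sham alone, and called 2.65% of 6491 genes with an adjusted p in CONV against the other libraries. With 2 of 3 sham and 3 of 4 FLASH muscle files named for another record, the groups other than CONV depend on the record followed. With files taken by library name, CONV versus sham in muscle called 67 higher and 97 lower genes (1.25%), with 0 members among them. None of the 19 correlations of Hdc over the 10 muscle libraries passed (Pearson's r -0.56 to 0.77, smallest adjusted permutation p 0.155). The 14 neutrophil-linked genes summed to 6.05 to 10.8 CPM in CONV muscle and 3.34 to 5.08 in the others, at 35 to 134 counts a library. Mean Hdc was 0.481 and 0.410 CPM. Of the 2 neutrophil-linked genes tested in muscle, 0 passed edgeR's test. CONV lay wholly above the others for 1.98% of single genes tested in muscle.

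**Figure D5:**
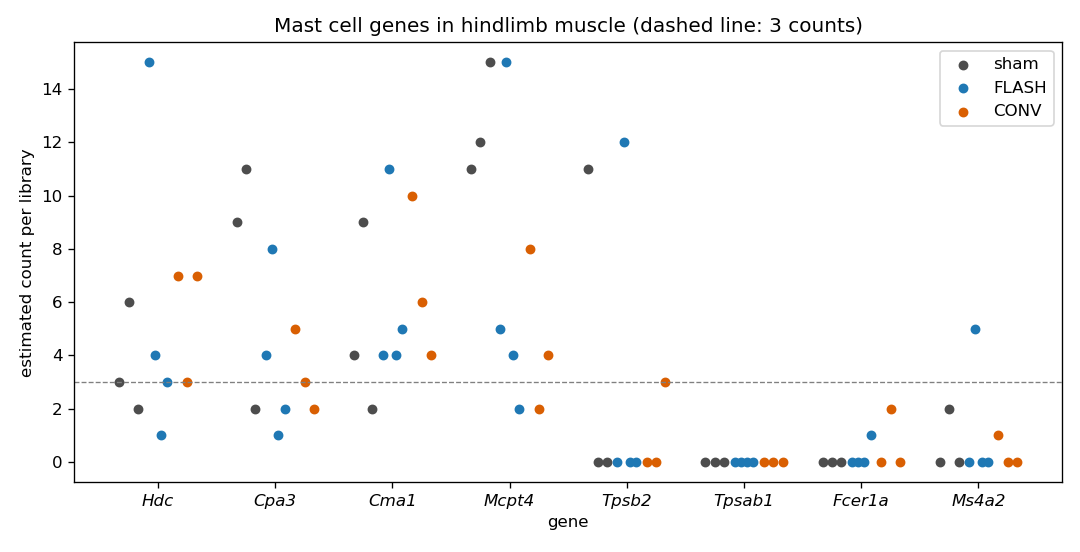
Estimated counts of each gene (vertical axis) in the 10 muscle libraries, coloured by group, with a dashed line at the 3 counts that a count of 0 allows. Counts reach 15 for Hdc and Mcpt4, and the groups overlap for Hdc, Cpa3 and Cma1.

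The CONV difference was then set between the tissues in a single fit over 20 libraries, treated as independent, in which 7 members and 19199 genes were tested. The labels do not say whether skin and muscle libraries share animals, so this independence is an assumption. Hdc had the smallest p of the members: its CONV difference was larger in skin than in muscle by 3.80 ± 0.98 on the log2 scale, with an adjusted p of 0.0903 by edgeR. It did not pass, and 0 members were called where 0.109% of genes were. Of the members, 2 had an unadjusted p under 0.05, the other being Mcpt4 at 1.93 ± 0.87 (adjusted p = 0.276). Cpa3 was at 1.44 ± 0.92 (adjusted p = 0.452) and Cma1 at 0.97 ± 0.76 (adjusted p = 0.556). DESeq2 gave 3.77 for Hdc with an adjusted p of 0.00563, where it called 3.14% of genes. Without skin FLASH library 4 edgeR gave 4.36 with an adjusted p of 0.00631 and called 3.07% of genes, and without skin CONV library 1 it gave 4.20 with 0.0242 and called 2.98%. These were the only 3 of 25 alternatives in which Hdc passed. Over all 25 its difference was 2.98 to 4.36, with an edgeR adjusted p of up to 0.659.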

How the data were processed

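RNA of 20 libraries (10 skin, 10 muscle) was quantified by the authors with kallisto against mm10, per the submitters' processing notes. The deposited files give an estimated count and a TPM value per transcript, both made by the authors, and the annotation release is not given in the sources used here. Of 116116 transcripts, 114322 matched GENCODE M21 without version, and the unmatched held 0.873% to 1.85% of a library's counts. The deposited estimated counts were summed to genes and rounded. Groups follow the record of each file.

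Genes were tested with edgeR 4.0.16 in R 4.3.3 (quasi-likelihood F test) with TMM scaling, filterByExpr and Benjamini-Hochberg adjustment over all genes, at 0.05. It was checked on simulated data. CPM uses TMM-scaled library sizes. Log2 CPM used a prior count of 2. Ratios of genes and correlations were tested by permutation (scipy 1.17.1). Alternatives were DESeq2 1.42.0, other size factors, no filter, a replicate block, files by library name, TPM plus 0.1, a prior count of 0.5 and leaving out libraries. The rule for naming took all members, 6 fixed marker genes, up to 4 called genes of a list and the 5 genes most like Hdc or Cpa3. Genes of the ratio tests and Mrgprb2 are named beyond it. Members and lists were chosen with earlier results of these data known. Replicate libraries are not stated to be separate animals, so p-values reflect only how these samples vary, and that may be technical. No pair of libraries within a group agreed within sampling noise (chi-square per degree of freedom at least 7.78). Depth differed between the tissues, and intervals cover counting error only. 1 list of mast cell signals is not reported here.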

Additional observations from a re-analysis of the deposited data

Results flagged for a closer look

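The FLASH groups of 4 libraries were examined for a library far from the rest by Dixon's criterion, which chance meets in about 1 in 20 groups. Of 11 combinations of gene and tissue with at least 10 counts in a library, 6 met it. Skin FLASH library 4 stood above the other FLASH libraries in 5 of them, with 18.43 CPM of Hdc, 22.02 of Cpa3, 18.4 of Cma1, 26.21 of Mcpt4 and 17.04 of Tpsb2. Those 5 come from 1 library and are not independent, so 6 of 11 cannot be set against 1 in 20. The next highest FLASH library had 4.43, 8.13, 5.88, 8.60 and 3.26 CPM of these genes. The same library had 32.3 CPM of S100a8, against 0.15 to 2.12 in the other FLASH libraries. In muscle, FLASH library 2 had 1.046 CPM of Tpsb2, or 12 counts, and the other FLASH libraries had 0. Its file bears the library name of a sham record.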

How the results depend on the processing

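In CONV skin against the other libraries, 1 member was called, 3 under the replicate block (Hdc, Cma1 and Fcer1a), 0 without the libraries of disagreeing name, and 0 to 3 with 1 library left out. Over these alternatives the Hdc change kept its sign (3.50 to 4.51). Within each tissue the replicate numbers did not pair the groups: 3 of 9 same-numbered pairs in skin and 1 of 9 in muscle had deviations correlated above 0.1. Pairing between skin and muscle was not tested. In CONV versus sham 0 members were called, 2 with DESeq2 and 0 to 1 with a library left out. In FLASH versus CONV and in the tissue difference the 0 became 1 with DESeq2 and 0 to 1 with a library left out. The 6 pairs of Hdc with mast cell genes became 0 to 7 with a library left out, 0 only without a CONV library, where the exact test cannot pass. The 6 with neutrophil-linked genes became 0 with TPM, 0 without the libraries of disagreeing name and 0 to 8 with a library left out. The 5 correlations became 0 with TPM and 0 without the 2 farthest libraries, of which the latter leaves 5 libraries. Otherwise the cause was not tested. No called result reversed. Over all genes, the 317 higher and 14 lower calls in CONV skin became 953 and 339 under the replicate block, 1330 and 704 with DESeq2, 1171 and 283 without FLASH library 4, and 0 without the libraries of disagreeing name. In muscle the members had 0 to 15 counts a library, which limits the precision of differences there.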
